A study of Homo sapiens with 4 samples.

Results

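CREB1, CREM and ATF1, the transcription factors that bind cyclic AMP response elements, and the coactivators that work with them (CRTC1, CRTC2, CRTC3, CREBBP and EP300) are described here as RNAs that co-purified with the kinesin KIF5A. These 8 genes were chosen by name out of the 60719 genes in the count tables, with the large difference of CRTC2 between the constructs already known. Their differences between the constructs are therefore a description, and no test is read from them. All 8 matched 1 gene identifier each and all 8 passed the filter on low counts.

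The cell line was SK-N-AS, established from a human neuroblastoma. Its cells were transiently transfected, so that each group received a V5-tagged construct of wild-type KIF5A (WT) or of the mutant that the labels call d27, one of the ALS-associated forms the study's title speaks of. The comparison asks which RNAs are recovered differently with the mutant motor. RNA was extracted from anti-V5 magnetic bead precipitates begun 24 hours after transfection, with 2 precipitates per construct, numbered 1 and 2. Endogenous KIF5A was not labelled as removed from either group, so every library may hold RNA from cells that carry both proteins. Nothing in the labels says that the precipitates came from separate cultures, so each p-value rests on a spread between libraries that may be only technical. No input or mock precipitate is used here: a value compares d27 with WT precipitates, and a higher RNA level in the cells cannot be told apart from more recovery with the motor.

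Gene counts totalled between 8142869 and 18335151 per library. Reads assigned to no single gene made up 25.9% of entries in d27 replicate 1, 36.8% in d27 replicate 2 and 47.3% to 47.6% in the WT libraries. KIF5A itself, which checks that the construct's RNA was present but not which construct, was at 83658 and 166138 CPM (counts scaled to library size, corrected by the TMM method) in WT and 108245 and 109266 in d27. Of the genes fixed as a check of the cell line, all 9 mesenchymal and all 7 adrenergic neuroblastoma genes had counts in every library. The mesenchymal genes summed to 2997 and 3527 CPM in WT and 4090 and 4006 in d27. FOSL1, a FOS relative, alone went from 166 and 143 to 1917 and 1749, and without it the sums were 2831 and 3384 in WT and 2173 and 2258 in d27. VIM (1809 and 1861 in WT, 1186 and 1340 in d27) and FN1 (489 and 1059, then 164 and 338) were lower in d27. YAP1 (91.8 and 74.2, then 168 and 105), WWTR1 (70.1 and 58.7, then 134 and 92.3), SNAI2 and FOSL2 were higher in both d27 libraries. The groups of PRRX1 and NOTCH2 overlapped. The adrenergic genes summed to 850 and 832 in WT and 738 and 591 in d27. Among markers of other cell types, CD3E, EPCAM, KRT5, GFAP and HBB had no counts in any library, while PTPRC, a leukocyte phosphatase, was at 190 and 162 CPM in WT and 101 and 79.8 in d27. The part of these differences between libraries in the values of single genes was not tested.

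CREB1, CREM and ATF1 are leucine zipper proteins that sit on cyclic AMP response elements, and kinases such as protein kinase A phosphorylate them. The CRTC proteins are coactivators that wait in the cytoplasm, phosphorylated and held by YWHA adaptor proteins, until cyclic AMP stops the SIK kinases or calcium activates the phosphatase calcineurin, after which they enter the nucleus and join CREB. CREBBP and EP300 are large lysine acetyltransferases that bind phosphorylated CREB, and in neurons the whole pathway drives genes that respond to activity.

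The element these proteins read is the palindrome TGACGTCA, or its core TGACG. The following stretches of 30 bases, from the RefSeq promoter table (GRCh38.p14), are shown because they hold the element upstream of CREM and of 4 CREB target genes whose RNA is described below. Those 4 are all among the targets that rose in d27, and each holds the core without the palindrome. VGF, DUSP1 and CCNA2, tested targets that were not called, hold the palindrome and are not shown. Capitals mark 1 match per gene, read as TGACG or as CGTCA on the other strand, and CREM, NR4A3 and EGR1 hold further matches of the core in their windows. In CREM it lies 50 bases before the start of a transcript that begins inside the gene, and at base 3 of another such transcript. In FOSB it lies 60, in FOS 64, in EGR1 66 and in NR4A3 25 bases before the start.
CREM, chr10:35195841-35195870, plus strand: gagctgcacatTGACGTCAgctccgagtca
FOSB, chr19:45467924-45467953, plus strand: gcaaggggcgggTGACGtaagcaggggggc
FOS, chr14:75278752-75278781, plus strand: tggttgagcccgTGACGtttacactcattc
EGR1, chr5:138465401-138465430, plus strand: tatggccatgtaCGTCAcgacggaggcgga
NR4A3, chr9:99821848-99821877, plus strand: ctgtggcataaaTGACGtgccgagagagcg

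The table held promoters of 250 bases before to 50 after each start for 7 of the 8 genes, all but CRTC2. The palindrome was in those of CREM alone, and the core, which the palindrome contains, was in those of CREM, CRTC3 and CREBBP. Over all 35116 promoter windows, 1.85% held the palindrome and 24.6% the core on either strand. Counted per gene over all its windows, the shares were 3.94% and 40.6% of the 10633 tested genes with an entry. CREM had 7 such windows, so it had more chances of a match than a gene with 1.

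CRTC2 was the member with the largest difference. It encodes the CRTC protein best known for the response to fasting in liver, and its gene (ENSG00000160741.17, GRCh38 chromosome 1, 153947669 to 153958625, minus strand) shares no exon base with another gene of GENCODE release 29. In WT it had 578 counts in replicate 1 and 586 in replicate 2, and in d27 it had 9598 and 6605. Pairs of values for a group are in that order throughout. Scaled, that was 65.8 and 60.9 CPM in WT and 522 and 614 in d27. Both d27 libraries lay far above both WT libraries, and the replicates of each group lay close together. The means were 63.3 ± 3.4 CPM in WT and 568 ± 65 in d27 (SD, n = 2 each), a fold of 8.97 and a log2 fold change of 3.16 ± 0.26 (SE). Among the 14909 genes tested, that log2 fold change ranked 102 from the top. It stayed between 2.91 and 3.29 over 11 alternative fits, which include each library left out in turn.

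CRTC1, the CRTC protein most abundant in brain, went the same way by less. It was at 39.7 and 28.7 CPM in WT and at 85.5 and 88.3 in d27. The d27 libraries lay close to each other and above both WT libraries. The log2 fold change was 1.35 ± 0.26 (SE), and between 1.15 and 1.64 over the alternatives. CRTC1 and CRTC2 were the 2 of 8 members with an edgeR adjusted p under 0.05. Over all genes tested, 11.7% were called in either direction with 8.00% higher in d27 and 3.70% lower. Because the members were chosen with this contrast known, nothing is read from their count.

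CRTC3, the third of these coactivators, was at 68.4 and 92.2 CPM in WT and at 63.3 and 62.4 in d27. The d27 values lay just below the lower WT value, and the WT replicates differed from each other by more than the gap between the groups. The log2 fold change was -0.35 ± 0.25 (SE) and the call threshold was not met. CRTC3 overlaps the antisense gene CRTC3-AS1 over 103 exon bases, and without a stated strand setting reads of the pair may not be told apart. The same holds for antisense genes over 205 exon bases of CREM, 107 of EP300 and 59 of CREB1.

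The makeup of the CRTC family within a library does not depend on how libraries are scaled. CRTC2 made up 37.8% of all CRTC counts in WT replicate 1 (exact 95% interval 35.4% to 40.3%) and 33.5% in WT replicate 2 (31.3% to 35.8%). In d27 it made up 77.8% (77.1% to 78.5%) and 80.3% (79.4% to 81.1%). CRTC3 went from 39.3% and 50.7% of the family's counts in WT to 9.44% and 8.16% in d27, and CRTC1 from 22.8% and 15.8% to 12.7% and 11.5%. CRTC1 thus held a smaller share in d27 while its own level was higher. These intervals describe counting error alone, because PCR copies of a molecule were not identified. The counts are also not adjusted for gene length. Per kilobase of merged exons, CRTC2 held 60.2% and 57.1% of the family in WT and 88.9% and 90.2% in d27. On that scale CRTC3 held 20.9% and 28.9% in WT and 3.6% and 3.06% in d27. Summed over the family, the level was 174 and 182 CPM in WT and 671 and 765 in d27, and without CRTC2 it was 108 and 121 in WT and 149 and 151 in d27.

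**Figure D1:**
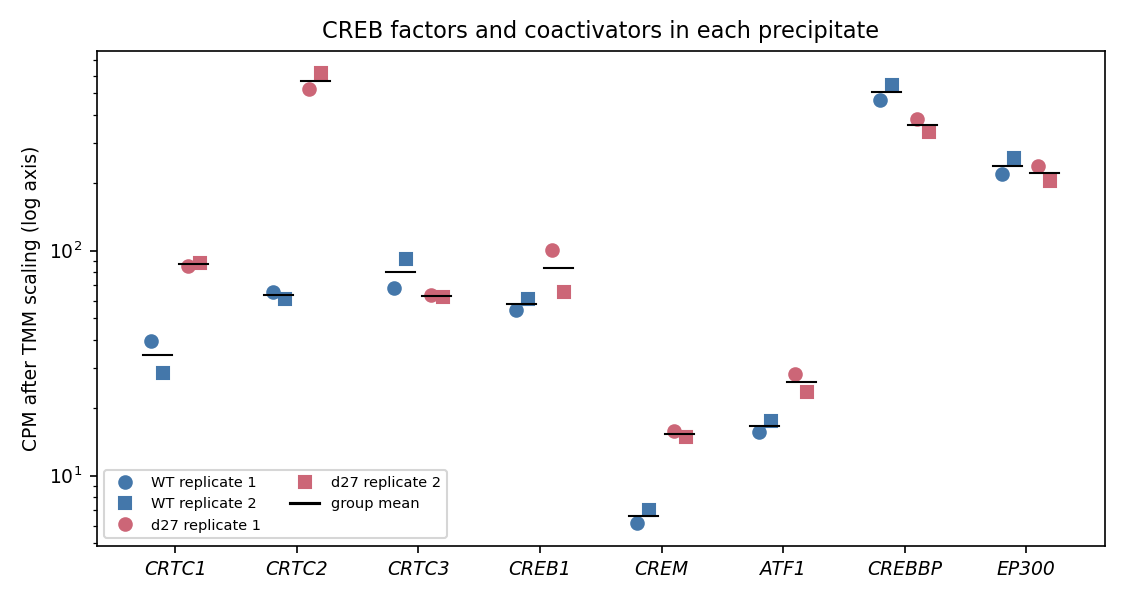
CPM after TMM scaling (log axis) of each of the 8 genes in each library, with circles for replicate 1, squares for replicate 2, blue for WT, red for d27 and black bars for group means. CRTC2 lies at 65.8 and 60.9 CPM in WT and at 522 and 614 in d27, the widest gap in the plot, while the EP300 groups overlap.

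**Figure D2:**
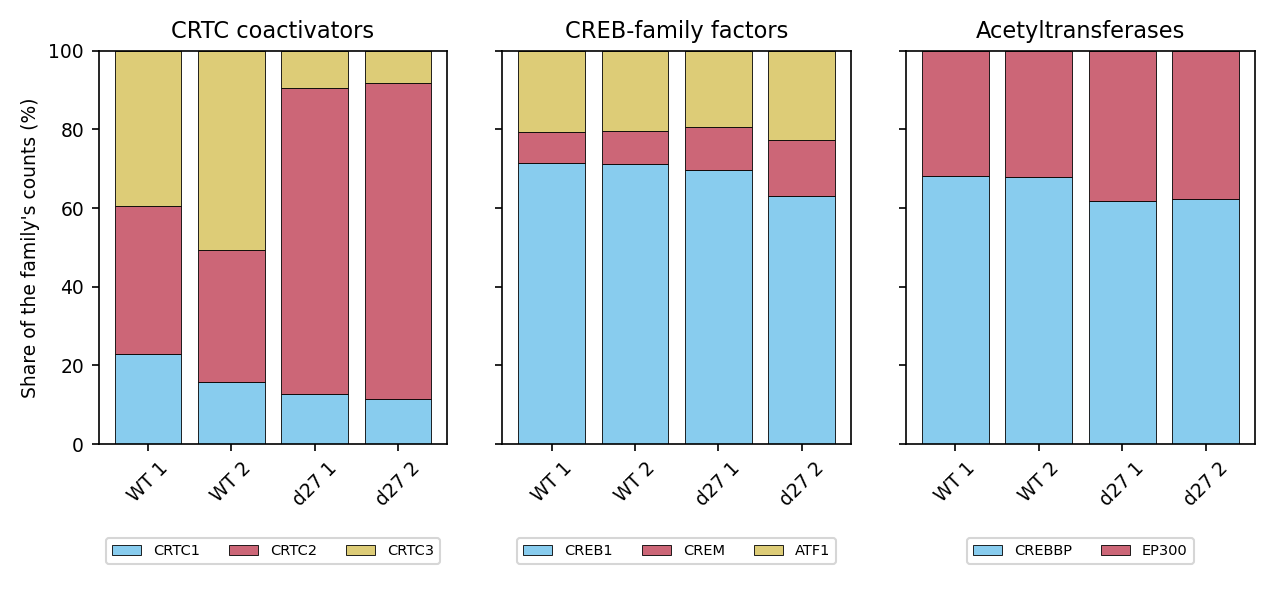
Share of the counts of each family (percent, stacked bars) taken by each gene in each of the 4 libraries, not adjusted for gene length. The CRTC2 segment goes from 37.8% and 33.5% in WT to 77.8% and 80.3% in d27, while CREB1 stays between 63.1% and 71.4% and CREBBP between 61.9% and 68.1% of their families.

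Lengths were taken into account to set the genes side by side, as counts per kilobase of merged exons, scaled to the same total in each library over all annotated genes (the TPM scale). On that per-length scale CREBBP had the highest level in WT, at 107 and 128. CRTC2 (64.3 and 61.7) and EP300 (61.9 and 75.2) came next and did not differ beyond the spread of EP300. CRTC3 (22.3 and 31.2), CREB1 (20.1 and 23.4), ATF1 (19.7 and 23.1) and CRTC1 (20.1 and 15.1) came below these, with ranges that overlapped between neighbours in that order, though CRTC3 lay above CRTC1, and CREM was lowest at 3.81 and 4.54. In d27 CRTC2 stood first at 663 and 658 per length, followed by CREBBP at 114 and 84.4 and EP300 at 87.2 and 63.0, whose ranges overlapped. CREM was again the lowest, at 12.7 and 10.0. These levels assume that all annotated exons of a gene are used, which the counts cannot show.

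Among the CREB-family factors, CREM had the largest fold on the fewest counts. The gene encodes activators and, from a start inside the gene, the inducible repressor ICER. Its counts were 54 and 68 in WT and 291 and 159 in d27, or 6.14 and 7.07 CPM in WT and 15.8 and 14.8 in d27. Both d27 values were above both WT values. The log2 fold change of 1.21 ± 0.34 (SE) did not meet the call threshold, but met it under 5 of the 11 alternatives, with values between 0.94 and 1.34. A count per gene adds all its transcripts, so ICER cannot be told apart from the others.

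CREB1, the founding member, was at 54.4 and 61.1 CPM in WT and at 101 and 65.4 in d27. The d27 replicates differed by more from each other than d27 replicate 2 did from either WT library. The log2 fold change was 0.53 ± 0.28 (SE) and became 0.20 without d27 replicate 1. ATF1, the close relative that pairs with CREB1, was at 15.6 and 17.6 CPM in WT and at 28.4 and 23.5 in d27. Its groups did not overlap, and the log2 fold change was 0.65 ± 0.29 (SE). With an offset for GC content and exon length it became 0.08. Neither gene was called.

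CREB1 took the largest share of its family's counts in every library, without regard to gene length. It made up 71.4% and 71.3% of the CREB1, CREM and ATF1 counts in WT and 69.6% and 63.1% in d27. CREM made up 8.07% (exact 95% interval 6.12% to 10.4%) and 8.24% (6.46% to 10.3%) in WT and 10.9% (9.74% to 12.1%) and 14.2% (12.2% to 16.4%) in d27. The WT intervals overlap that of d27 replicate 1 and not that of d27 replicate 2. They too describe counting error alone. Per kilobase of merged exons, CREB1 held 46% and 45.9% of the family in WT, and ATF1 45.3% and 45.2%. In d27, CREB1 held 44.9% and 38.3% on that scale, and ATF1 43.2% and 47.2%.

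The acetyltransferase mRNAs had the most counts in WT. CREBBP (chromosome 16, 3725054 to 3880726, minus strand) was at 467 and 543 CPM in WT and at 386 and 338 in d27. Both d27 values lay below both WT values. The log2 fold change was -0.48 ± 0.25 (SE), not called, and became -0.02 with the offset for GC content and exon length. EP300 (chromosome 22, 41091786 to 41180079, plus strand) was at 219 and 257 CPM in WT and at 238 and 204 in d27, so its groups overlapped. Its log2 fold change was -0.11 ± 0.24 (SE), and became 0.23 with that offset, 0.03 without WT replicate 2 and 0.03 without d27 replicate 2.

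CREBBP made up 68.1% (exact 95% interval 66.9% to 69.3%) and 67.9% (66.8% to 68.9%) of the counts of the pair in WT. In d27 it made up 61.9% (61% to 62.8%) and 62.4% (61.1% to 63.6%). The intervals of the groups do not overlap, and those of replicates do. As for the CRTC family, they describe counting error alone and not the spread between libraries.

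CREBBP and EP300 have 15492 and 12500 bases of merged exons, the longest of the 8 genes, and CRTC2 has 3612. Over all genes tested, the median was 4348 bases among those called higher in d27, 7480 among those called lower and 4685 among the rest. With the offset CRTC2 kept a log2 fold change of 2.91 and CRTC1 one of 1.36, while CREBBP, CRTC3 and ATF1 came within 0.1 of 0. In all, 5 members had both d27 libraries above both WT libraries, against 31.4% of genes tested, and 2 had both below, against 29.8%.

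**Figure D3:**
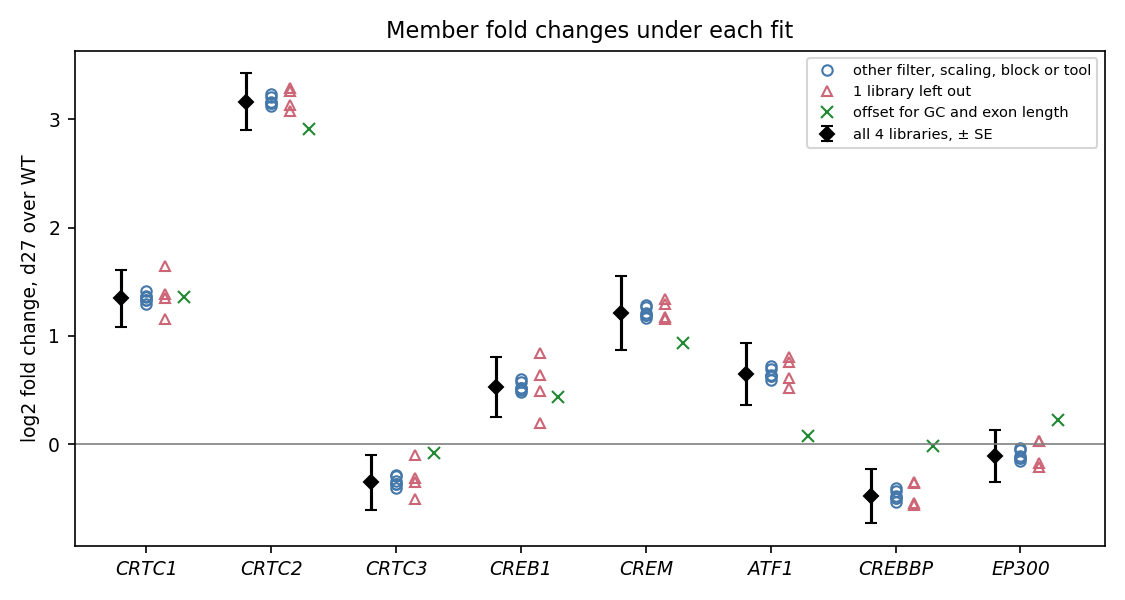
Log2 fold change of d27 over WT for each of the 8 genes, with all 4 libraries (black diamonds, bars are the SE), with another filter, scaling, block or tool (blue circles), with 1 library left out (red triangles) and with an offset for GC content and exon length (green crosses). CRTC2 stays between 2.91 and 3.29, and CREBBP moves from -0.48 to -0.02 with the offset.

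The genes around CRTC2, a set chosen after the values were seen, had log2 fold changes between -0.80 and 1.31. Within 25000 bases on each side, 6 other protein-coding genes were tested. DENND4B, which ends just before CRTC2 begins on the chromosome, was at 131 and 131 CPM in WT and at 117 and 139 in d27 (log2 fold change -0.04 ± 0.23 SE). SLC39A1, a zinc transporter on the other side, was at 2.28 and 4.05 CPM in WT and at 3.32 and 6.14 in d27. CREB3L4, an endoplasmic reticulum factor of the wider CREB group, was at 8.31 and 15.7 CPM in WT and at 4.73 and 9.11 in d27. Of the 6 neighbours, GATAD2B, a subunit of a chromatin remodelling complex, rose (log2 1.06 ± 0.26 SE, edgeR adjusted p = 0.0376), a call lost without WT replicate 2, without d27 replicate 1 and with library totals. The others, JTB and RAB13 included, did not pass.

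**Figure D4:**
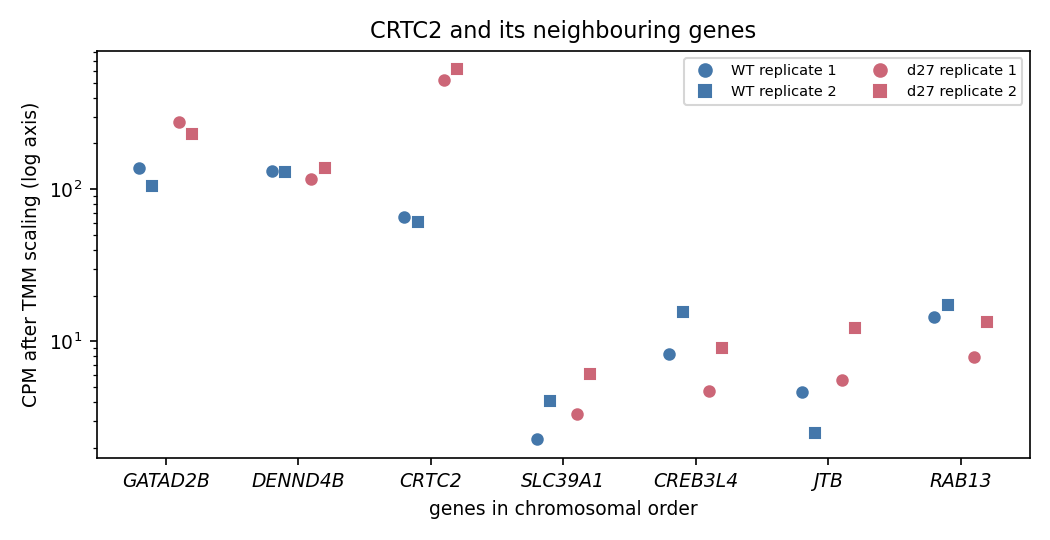
CPM after TMM scaling (log axis) in each library for CRTC2 and the 6 tested protein-coding genes near it, in chromosomal order, with circles for replicate 1, squares for replicate 2, blue for WT and red for d27. CRTC2, from which no test is read, lies at 65.8 and 60.9 CPM in WT and at 522 and 614 in d27. GATAD2B shows d27 above WT past the test, and DENND4B lies between 117 and 139 CPM in all 4 libraries.

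The 5 protein-coding genes whose pattern over the 4 libraries lay closest to that of CRTC2, by Euclidean distance between centred log2 CPM values, all had few counts. DNAAF11, a dynein arm assembly factor, had 3 and 3 counts in WT and 71 and 50 in d27. MAK, a kinase of cilia, AP1M2, an adaptor subunit of epithelial sorting, COX16, a respiratory chain assembly factor, and PIFO, a ciliary protein, each had no counts in WT and between 14 and 26 in each d27 library. Their distances from CRTC2 lie on a scale that adds a prior count, which draws the folds of such genes toward 0. COX16 shares exons with a readthrough gene, so its count is uncertain.

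The 5 sets of genes described next, all around these factors, were counted in the same fit, against 11.7% of all genes called and a median log2 fold change of 0.00 over all genes tested. They were listed from knowledge of the pathway, and several of their genes were already known to differ here.

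Of 32 known CREB target genes, 23 were tested, 7 rose, none fell and 16 did not pass, with a median log2 fold change of 0.76. FOSB and FOS, partners of JUN proteins in the AP-1 factor, rose from 2.71 ± 0.29 to 429 ± 19 CPM and from 13.2 ± 3.9 to 375 ± 72 CPM (SD, n = 2 each). EGR1, an early zinc finger factor, rose by 5.42 ± 0.34 (log2, SE), and ATF3, a stress-induced relative of CREB, by 4.22 ± 0.29. These 4 had edgeR adjusted p-values of 0.00226 or lower. The orphan nuclear receptors NR4A2 and NR4A3 rose as well. NR4A2 went from 26 and 13 counts in WT to 296 and 165 in d27 (2.87 ± 0.48, edgeR adjusted p = 0.0147), and NR4A3 went from 46 and 112 to 719 and 275 (1.94 ± 0.43, 0.0322). GADD45B, a growth arrest gene, rose by 1.69 ± 0.31 (edgeR adjusted p = 0.0191). The NR4A3 and GADD45B calls were lost without d27 replicate 1 (adjusted p = 0.0810 and 0.0641).

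The 16 tested targets that did not pass included abundant ones. VGF, a secreted neuronal peptide precursor, had 6634 and 8694 counts in WT and 5543 and 5719 in d27 (log2 fold change -0.99 ± 0.33 SE), and SCG2, a granin, had 5758 and 5359 in WT and 15605 and 6969 in d27 (0.30 ± 0.27). VGF, the phosphodiesterase PDE4B (-1.32 ± 0.44) and PPARGC1A had both d27 libraries below both WT libraries. JUNB (0.96 ± 0.26), RGS2 (0.86 ± 0.24), GEM, NR4A1, PER1 and DUSP1 had both above. Over the 23 tested targets, called ones included, 13 had both above and 3 both below, against 31.4% and 29.8% of all genes tested. The remaining 9 listed targets had too few counts to test. SIK1, the kinase that CREB induces and that holds CRTC proteins back, had 4 and 3 counts in WT and 16 and 8 in d27, and it has a near-identical copy in GRCh38. SST, CGA and AREG had no counts in any library, where 3 counts would be 0.163 to 0.341 CPM, and PCK1, the liver target by which CRTC2 is best known, had 1, 0, 0 and 1. Among the 6 called targets with a promoter entry, none held the palindrome and 4 held its core. Of the 13 with an entry that were tested and not called, 3 held the palindrome and 9 the core.

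Of 18 regulators of the CRTC proteins, 16 were tested, 6 rose, none fell and 10 did not pass, with a median log2 fold change of 0.63. Of the 6, 3 encode YWHA adaptors, which hold phosphorylated CRTC proteins in the cytoplasm. YWHAG was at 425 ± 22 CPM in WT and rose to 1229 ± 171 in d27 (SD, n = 2 each), with an edgeR adjusted p of 0.0178, YWHAH from 74.2 ± 4.6 to 151 ± 15 (adjusted p = 0.0323), and YWHAZ, named after its value was seen, by 1.25 ± 0.33. Another 2 encode parts of calcineurin. The catalytic subunit PPP3CB rose by 1.50 ± 0.30 and the regulatory subunit PPP3R1 by 1.89 ± 0.48. MARK2, a kinase of CRTC2, rose by 1.01 ± 0.25. The calls of YWHAH, YWHAZ and MARK2 were lost without WT replicate 2, those of YWHAZ, MARK2 and PPP3R1 without d27 replicate 1 and that of YWHAH without d27 replicate 2. All 4 of these calls were also lost with library totals. The count of 6 became 2 with library totals in place of TMM, 3 without WT replicate 2 and 3 without d27 replicate 1. PPP3R1 shares exon bases with genes on both strands. The other tested kinases of the list, SIK2 (log2 fold change 0.20), SIK3 (-0.13), STK11 (-0.05), PRKAA1 (0.54) and PRKAA2 (-0.28), were not called. Also not called were PPP3CA (-0.06) and PPP3CC (0.71) of calcineurin and the adaptors YWHAQ (1.00), YWHAE (0.43) and YWHAB (-0.16). PPP3CA had means of 102 CPM in WT and 97.9 in d27, and PPP3CB had 21.8 and 61.8.

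Of 28 genes of cyclic AMP and protein kinase A signalling, 25 were tested, 4 rose, 2 fell and 19 did not pass, with a median log2 fold change of -0.35. PRKACA, the main catalytic subunit of protein kinase A, had 928 and 754 counts in WT and 10313 and 5433 in d27. The level went from 92.0 ± 19.3 CPM to 533 ± 40, a log2 fold change of 2.53 ± 0.27 (SE; edgeR adjusted p = 0.0068), and it passed under all 11 alternatives. The related catalytic subunit PRKACB was at 42.0 ± 7.4 CPM in WT and 47.0 ± 10.7 in d27 and was not called. PKIA, an inhibitor of these subunits, rose by 1.47 ± 0.28 and the regulatory subunit PRKAR1A by 0.94 ± 0.23, as did PKIG, another inhibitor, named after its value was seen (1.54 ± 0.40). The PRKAR1A and PKIG calls were lost without WT replicate 2, without d27 replicate 1 and with library totals. The anchoring proteins AKAP1 (-0.96 ± 0.24) and AKAP13 (-0.99 ± 0.25) fell, and both calls were lost without WT replicate 2, without d27 replicate 1, without d27 replicate 2 and with library totals. AKAP13 was also lost with the offset for GC content and exon length (log2 -0.40). The 6 calls became 2 without WT replicate 2, 2 without d27 replicate 1, 2 with library totals and 14 without WT replicate 1.

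Of 12 other CREB and ATF factors, all tested, 4 rose, none fell and 8 did not pass, with a median log2 fold change of 0.91. ATF6B, a sensor of the endoplasmic reticulum, was at 45.8 ± 3.0 CPM in WT and rose to 109 ± 7 in d27, by 1.25 ± 0.23 on the log2 scale (edgeR adjusted p = 0.0195). ATF7 (1.38 ± 0.32), CREB5 (1.37 ± 0.32) and CREBL2 (1.49 ± 0.40) also rose. ATF7 overlaps an antisense gene over 2043 exon bases and a readthrough gene over 1456. Both d27 libraries lay above both WT libraries for 10 of the 12, against 31.4% of all genes tested. The 4 calls became 1 without d27 replicate 1 (all of ATF7, CREB5 and CREBL2 lost), 2 without WT replicate 2, 2 with library totals and 9 without WT replicate 1.

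Of 20 other transcription coactivators and acetyltransferases, 19 were tested, 3 fell, none rose and 16 did not pass, with a median log2 fold change of -0.28. TAF1, a large subunit of the general factor TFIID, was at 248 ± 51 CPM in WT and fell to 118 ± 1 in d27, a log2 fold change of -1.07 ± 0.25 (edgeR adjusted p = 0.0350). The Mediator subunits MED14 (-0.99 ± 0.23) and MED12 (-1.23 ± 0.31) fell as well. Without WT replicate 2, and without d27 replicate 1, all 3 calls were lost, and without d27 replicate 2 the count was 1, while without WT replicate 1 it was 6. With library totals it was 1, TAF1. Of the 7 acetyltransferases whose symbols begin with KAT, none was called: KAT5 (0.41), KAT2A (0.32), KAT7 (0.25), KAT2B (0.18) and KAT8 (0.05) were above 0, and KAT6B (-0.96) and KAT6A (-0.54) were below. Both d27 libraries lay above both WT libraries for KAT5 and KAT7, and below both for KAT6B and KAT6A. KAT5 shares 38.6% of its exon bases with RNASEH2C on the opposite strand, so its count is uncertain. Over the 19 tested genes of the set, 4 had both above and 10 both below, against 31.4% and 29.8% of all genes tested.

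**Figure D5:**
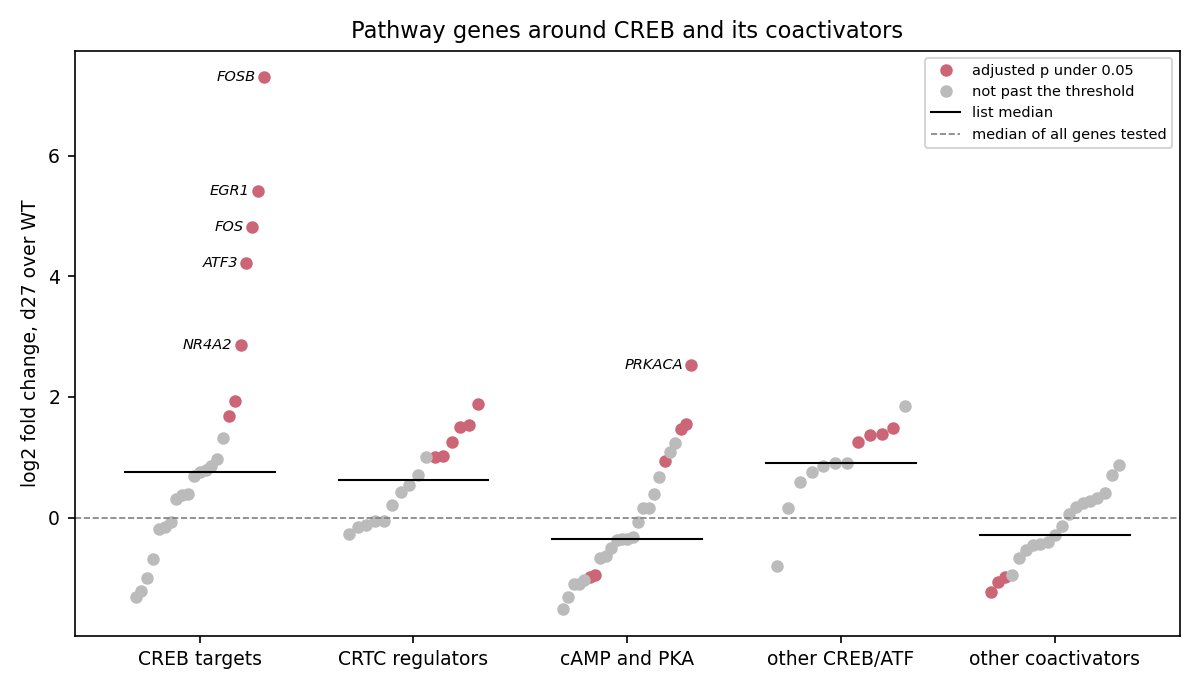
Log2 fold change of d27 over WT for each tested gene of the 5 sets, in order within a set, with red points for an edgeR adjusted p under 0.05, grey points for the rest, a black bar for the median of each set and a dashed line for the median of all genes tested. The CREB targets reach the highest values, with FOSB at 7.30, and PRKACA stands above the rest of its set at 2.53.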

How the data were processed

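The authors deposited 1 table of raw read counts per gene for each of 2 WT and 2 d27 libraries. Per the submitters' processing notes, they counted with HTSeq on GRCh38 and also used DESeq2. Not given in the sources used here are the strand setting, aligner, annotation and versions. HTSeq's summary entries stayed out of library sizes. A table of gene names gave symbols for 60419 of 60719 genes, and GENCODE release 29 (GRCh38) gave positions, exon lengths and GC content for 58444.

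Counts were scaled by TMM and filtered with filterByExpr (minimum count 10, minimum total 15), and 14909 genes were tested with edgeR 4.0.16 in R 4.3.3 (robust glmQLFit, glmQLFTest, group as the only term). P-values were adjusted by Benjamini-Hochberg across those genes, and 0.05 was the threshold. An SE is the absolute log2 fold change over the root of the F statistic. Counts were also simulated for d27 against WT (14250 genes tested), with 68 of the tested genes changed 2-fold, 66 changed 4-fold and 66 changed 8-fold. The recovery was 14.7% for 2-fold, 93.9% for 4-fold and 97% for 8-fold changes. Other fits used library totals or DESeq2 size factors in edgeR, DESeq2 1.42.0 itself, no filter, at least 50 counts in 2 libraries, a replicate block, an offset for GC content and exon length, and each library left out.

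The members and lists were chosen with earlier results of these data known. Named genes are KIF5A, the members, every called CREB target, up to 5 called genes by lowest p in each other list (at least 2) and the 5 genes nearest to CRTC2. Others are marked where named or given as values. A marker among those of other cell types is not reported here.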

Additional observations from a re-analysis of the deposited data

How the results depend on the processing

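The 1743 calls over all genes became 2909 with DESeq2, 2862 with no filter, 3575 with the replicate block and between 768 and 4851 with 1 library left out. The labels do not say whether the replicate numbers pair libraries. Across 14909 genes, the deviations of the replicates numbered 1 in WT and d27 had a correlation of 0.0962. With 2 libraries per group, that value cannot settle whether a day or batch was shared. With the replicate block, with DESeq2 and with no filter, CREB target calls went from 7 to 12, 12 and 12, cyclic AMP and protein kinase A calls from 6 to 11, 12 and 13, and other CREB and ATF calls from 4 to 8, 7 and 7. In that order of fits, 1, 2 and 2 of the CREB target calls were lower in d27. Of the cyclic AMP and protein kinase A calls, 5, 6 and 7 were lower. With library totals, calls became 2 of the CRTC regulators, 2 of the cyclic AMP genes, 2 of the other CREB and ATF factors and 1 of the other coactivators. With 1 library left out, calls ranged from 6 to 11 for CREB targets, 3 to 8 for CRTC regulators, 2 to 14 for cyclic AMP genes, 1 to 9 for other CREB and ATF factors, 0 to 6 for other coactivators and 2 to 3 for the 8 CREB factors and coactivators. The cause was not tested. Over 440 refits of 41 named genes, 375 kept their direction and side of the threshold, 50 lost a call, 11 gained one and 4 reversed. With 1 library left out, the log2 fold change of KIF5A ranged from -0.568 to 0.401 (without WT replicate 2) and that of EP300 from -0.208 to 0.034, above 0 without WT replicate 2 and without d27 replicate 2. With the offset for GC content and exon length, EP300 was at 0.228. With 2 libraries per group, differences as small as those of CRTC3, CREB1, ATF1, CREBBP and EP300 may be missed. The simulation changed far fewer genes than the 1743 called here, and the p-value adjustment is stricter when fewer genes change. Its 14.7% recovery of 2-fold changes therefore does not give the share missed in these data.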
